A study of Homo sapiens with 6 samples.

Results

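The facilitative glucose transporters are the products of the SLC2A genes, also called GLUTs. Their transcripts were examined in A2780, a human ovarian cancer cell line labelled wild type and grown in DMEM with fetal bovine serum. The 10 genes taken were those whose name in the count files was SLC2A1, SLC2A3, SLC2A4, SLC2A6, SLC2A8, SLC2A10, SLC2A11, SLC2A12, SLC2A13 or SLC2A14, out of 44591 genes listed. All 10 were listed, and all 10 passed the low-count filter that left 16222 genes. There were 3 untreated libraries and 3 libraries from cells given 40 ng/ml of human recombinant CRMP2 (r-CRMP2) in the medium, and every library was labelled 48 h. No protein or vehicle control beside the untreated cells was analysed here, so r-CRMP2 cannot be told apart from anything else that differed between both sets of cultures. Nothing in the labels says that the libraries of a group came from separate cultures, so the p-values measure the spread between these libraries, which may be technical.

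Most GLUT proteins carry hexoses across membranes down their concentration gradient, without using energy. Class I holds GLUT1 (SLC2A1), which serves basal glucose uptake in most cells, GLUT3 (SLC2A3), a high-affinity carrier best known from neurons, GLUT4 (SLC2A4), the insulin-responsive carrier of muscle and fat, and GLUT14 (SLC2A14), a duplicate of GLUT3. GLUT11 (SLC2A11) belongs to class II. Class III holds GLUT6 (SLC2A6) and GLUT8 (SLC2A8), which sit mostly on membranes inside the cell, GLUT10 (SLC2A10), GLUT12 (SLC2A12) and HMIT (SLC2A13), a proton-coupled carrier of myo-inositol. SLC2A1 and SLC2A3 are textbook targets of the hypoxia-inducible factor HIF-1.

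Because HIF-1 signalling was a pathway the study examined, the 250 bases upstream of each start were searched for the core of the hypoxia response element, spelled ACGTG or GCGTG, on both strands and with overlapping matches counted. The sequences are from RefSeq (GRCh38.p14), which had 10 starts of 8 members. SLC2A3 and SLC2A4 had no entry. Of all 35116 starts in that table, 43.2% held at least 1 match, and 7 of the 10 member starts did, in 5 of the 8 genes. The 43.2% counts starts, not genes, and SLC2A11 gave more than 1 of the matching starts, from windows that partly overlapped. The upstream sequences of SLC2A1, the member with the largest rise among those with an entry, and of SLC2A6, the member with the largest fall, are shown 5′ to 3′ on the strand of the gene. Capitals mark the matches. That of SLC2A1 is chr1:42958869-42959118 (minus strand) and that of SLC2A6 is chr9:133479100-133479349 (minus strand).
SLC2A1: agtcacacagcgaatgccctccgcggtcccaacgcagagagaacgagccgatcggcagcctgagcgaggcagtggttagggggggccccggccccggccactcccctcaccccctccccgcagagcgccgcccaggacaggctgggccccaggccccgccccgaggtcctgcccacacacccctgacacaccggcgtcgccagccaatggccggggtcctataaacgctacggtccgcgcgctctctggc
SLC2A6: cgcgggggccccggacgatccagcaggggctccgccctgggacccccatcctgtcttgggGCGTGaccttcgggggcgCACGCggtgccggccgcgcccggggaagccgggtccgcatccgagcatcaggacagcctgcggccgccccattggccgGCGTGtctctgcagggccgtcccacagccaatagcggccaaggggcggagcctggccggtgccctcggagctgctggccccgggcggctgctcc
No match lay in the window of SLC2A1. That of SLC2A6 held 3 matches, starting 190, 172 and 94 bases before the start of the gene. All 3 were GCGTG on 1 strand or the other, and none was ACGTG. G and C made up 76.8% of the SLC2A6 window and 72.4% of the SLC2A1 window. The share of all starts with 3 matches is not given here. These matches describe the letters of the windows only, and sequence outside the windows was not searched.

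The counts per library lay between 21888530 and 25711353. The TMM factors, which adjust these totals for differences in composition, were 1.10 to 1.12 in untreated and 0.879 to 0.922 in r-CRMP2 libraries. Scaling therefore mattered: over all genes tested the median log2 fold change moved from -0.03 under TMM to -0.34 when only library size was used. Replicate libraries differed by more than sampling noise (their chi-square divided by its degrees of freedom was 3.62 to 10.3), so no pair looked like the same library deposited again. Among 12 markers listed for epithelial ovarian cancer, KRT7, KRT8, KRT18, MSLN and the mesenchymal marker VIM were abundant, PAX8 was at 4.06 CPM (counts scaled to a common library size) in untreated and 3.74 CPM in r-CRMP2 cells, and WT1, CDH1 and WFDC2 did not pass the low-count filter. Their sum was 6071 to 6391 TPM in untreated and 6105 to 6427 TPM in r-CRMP2 libraries, but its members moved apart. Of the 9 tested, 3 were higher (KRT18, MSLN and VIM, the last by 0.84 on the log2 scale). Lower were 2, KRT7, by 0.21, and MUC16. At the same edgeR adjusted p under 0.05 with TMM, 28.2% of all genes tested were higher and 30.1% lower. Without VIM the sum was 4448 to 4710 TPM in untreated and 3763 to 4087 TPM in r-CRMP2 libraries. Scaled by library size alone, 2 of the 9 were higher and 4 lower, beside 13.4% and 52.1% of all genes tested. The log2 fold change of KRT18, 0.20 under TMM, was then -0.11. Of 11 fibroblast markers, 10 passed the filter, led by COL1A1, and FAP did not. Their summed level was 280 to 320 TPM (untreated) and 199.6 to 214 TPM (r-CRMP2), and without COL1A1 it was 120.3 to 129 and 102 to 105 TPM. By edgeR with TMM, 4 of the 10 were higher (COL1A2, LUM, PDGFRA and THY1) and 3 lower (COL1A1, PDGFRB and POSTN). Of all genes tested, 28.2% were higher and 30.1% lower. The median log2 fold change of the 10 was 0.19. Under library size alone the log2 fold changes of the 4 higher genes were -0.14 to 0.22, and each missed the threshold. Of the 10 fibroblast markers, 0 were then higher and 4 lower (all genes 13.4% and 52.1%), with a median of -0.12. Of 7 leukocyte markers CD68 and CSF1R passed, with PTPRC and CD3E near 0, and the sum was 29.9 to 36.6 TPM (untreated) and 79.8 to 80.95 TPM (r-CRMP2), with CD68 at 23.1 and 74.3 CPM. Of 5 endothelial markers 4 passed, and the sum was 4.23 to 4.59 TPM (untreated) and 0.923 to 1.54 TPM (r-CRMP2). All 6 libraries were labelled A2780, with no other cell type named, so these are transcript levels in cultures of that line. The part of these markers in the results was not tested. In bulk RNA fewer cells with a marker and less of its RNA per cell cannot be told apart.

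The transporter family as a whole was higher after r-CRMP2, and that rise lay in SLC2A1 and SLC2A3. Levels are compared between genes in TPM, a transcript level in which counts are divided by gene length and each library sums to the same total. The summed TPM of the 10 members was 564.5, 527.0 and 461.0 in untreated replicates 1, 2 and 3, and 1913, 2174 and 2305 in r-CRMP2 replicates 1, 2 and 3. The r-CRMP2 libraries lay above all untreated libraries, with a mean of 2130 ± 199 TPM against 518 ± 52.4 TPM (SD, n = 3 in each group), which was 4.12-fold. The exact two-sided permutation test gave p = 0.1, the smallest that 3 libraries against 3 allow. Without SLC2A1 and SLC2A3, the sum of the other 8 members was 50.4, 57.6 and 53.9 TPM in untreated libraries and 45.0, 43.2 and 43.2 TPM in r-CRMP2 libraries. As deposited, this sum was lower in every r-CRMP2 library (ratio of means 0.812, exact permutation p = 0.1), but with TPM divided by the TMM factor it was 48.4 ± 2.69 and 48.8 ± 0.426 (SD, n = 3 each), so no direction is given for it. The 4 class I genes summed to 466 ± 54.0 and 2089 ± 199.7 TPM (SD, n = 3 each), and the 5 class III genes to 49.4 ± 2.86 and 39.4 ± 0.451 TPM (SD, n = 3 each). Divided by the TMM factor, the class III sums were 44.3 and 43.9.

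**Figure D1:**
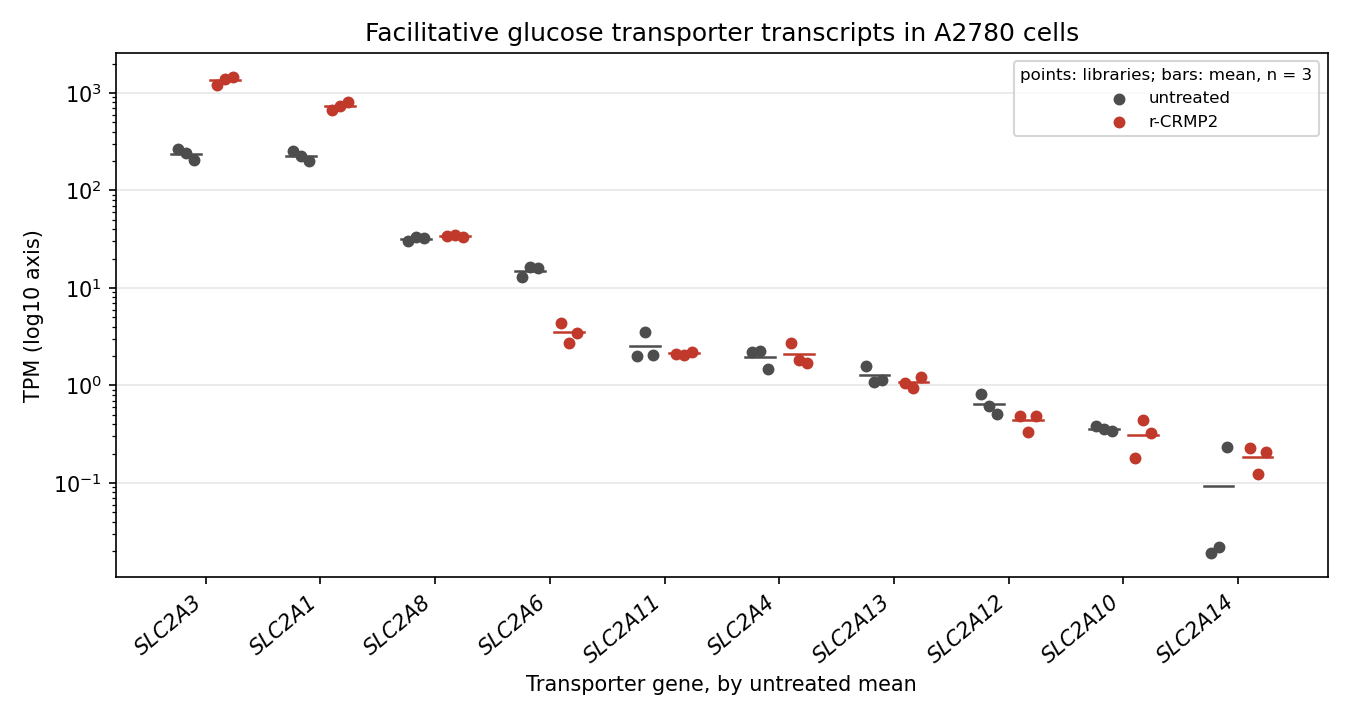
TPM of each transporter gene (log10 axis) in the 3 untreated (grey) and 3 r-CRMP2 (red) libraries, with bars at the mean of a group. The points of SLC2A3 and SLC2A1 are separated between groups by the widest rise and those of SLC2A6 by the widest fall, from means of 237, 226 and 15.1 TPM to 1353, 734 and 3.51 TPM.

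In untreated cells the order of mean levels was SLC2A3 (237 TPM), SLC2A1 (226), SLC2A8 (32.0), SLC2A6 (15.1), SLC2A11 (2.54), SLC2A4 (1.98), SLC2A13 (1.28), SLC2A12 (0.646), SLC2A10 (0.360) and SLC2A14 (0.0924). SLC2A3 was above SLC2A1 in each of the 3 untreated libraries, but their ranges overlapped. The ranges of SLC2A11 and SLC2A4 also overlapped, as did those of SLC2A4 and SLC2A13, while all other neighbours were separated. The order of the means was the same after r-CRMP2. SLC2A3 (1353 TPM) and SLC2A1 (734 TPM) were then apart, and the overlapping neighbours were SLC2A11 with SLC2A4, SLC2A12 with SLC2A10, and SLC2A10 with SLC2A14.

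Within the family, the transcript pool moved toward SLC2A3. A share within a library does not depend on how libraries are scaled. SLC2A3 took 46.6%, 45.8% and 45.0% of the family's TPM in untreated replicates 1, 2 and 3, and 62.6%, 64.4% and 63.4% in r-CRMP2 replicates 1, 2 and 3. Its share was higher by 17.7 percentage points, while that of SLC2A1 was lower by a smaller amount although its own level rose. SLC2A1 took 44.5%, 43.3% and 43.3% in untreated and 35.1%, 33.6% and 34.7% in r-CRMP2 libraries, a difference of -9.22 percentage points. Together both genes made up 89.5% ± 1.43 of the family in untreated and 97.9% ± 0.248 in r-CRMP2 libraries (SD, n = 3 each). The share of SLC2A8 went from 6.24% ± 0.789 to 1.61% ± 0.154, and that of SLC2A6 from 2.95% ± 0.606 to 0.168% ± 0.0549 (SD, n = 3 each). Of these, SLC2A6 had the lowest ratio of shares, 0.0569, against 0.258 for SLC2A8. Each of the other members was under 0.7% of the family in every library, and SLC2A14 under 0.06%. For 9 of the 10 members the shares of both groups did not overlap, each with an exact two-sided permutation p = 0.1, the floor of the design (Benjamini-Hochberg adjusted over 10 members, 0.111). The exception was SLC2A14, whose shares overlapped (exact permutation p = 1.0). Shares sum to 100%, so they are tied to each other and these are not 9 separate results. With the family's sum 4.12-fold higher, a member with an unchanged TPM takes a lower share. The mean TPM of SLC2A8 was 32.0 in untreated and 34.1 in r-CRMP2 libraries, so its lower share came from the larger sum. The mean TPM of SLC2A6 itself fell, from 15.1 to 3.51.

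**Figure D2:**
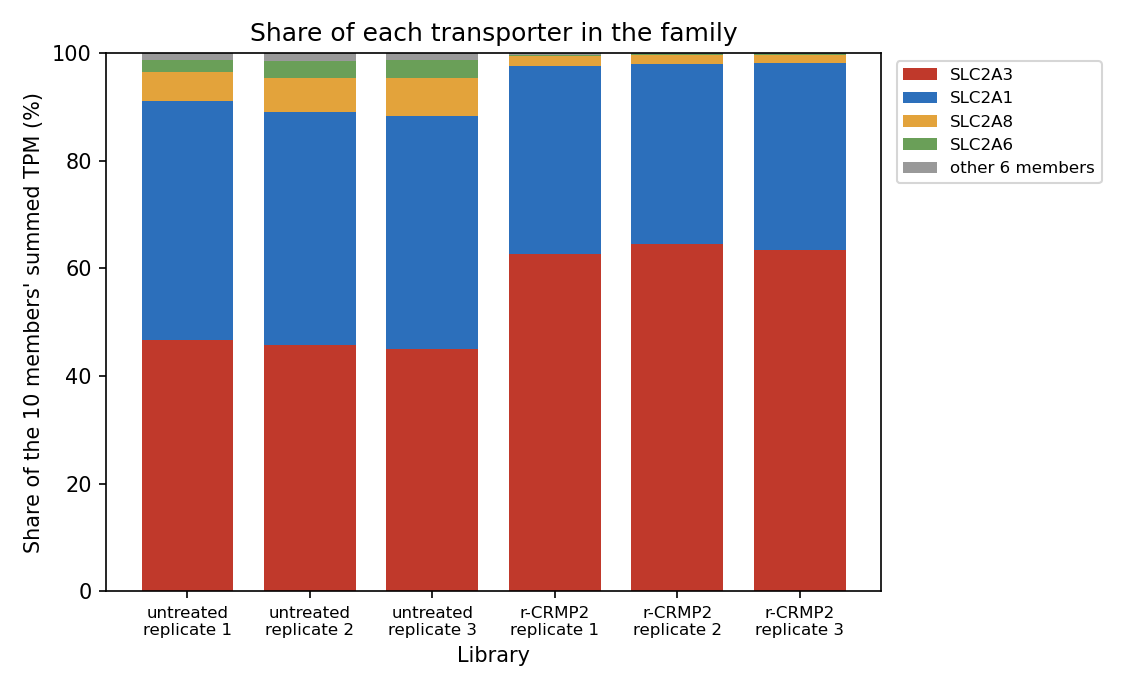
Share of each transporter in the summed TPM of the 10 members (percent, from 0 to 100), 1 stacked bar per library. SLC2A3 takes 45.0% to 46.6% of the untreated bars and 62.6% to 64.4% of the r-CRMP2 bars, and the bands of SLC2A8, SLC2A6 and the other 6 members shrink.

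In untreated replicates 1, 2 and 3 the TPM of SLC2A3 divided by that of SLC2A1 was 1.05, 1.06 and 1.04, and with r-CRMP2 it was 1.78, 1.92 and 1.82. The ratio varied less between untreated libraries than either gene did. Among untreated libraries the coefficient of variation was 11.8% for SLC2A3 and 11.4% for SLC2A1, whereas the ratio was 1.05 ± 0.00995 (SD, n = 3). The mean ratio was 1.76-fold higher with r-CRMP2 (log2 difference 0.81, exact permutation p = 0.1).

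For tests of single genes, raw counts were compared with edgeR over all 16222 genes, with the TMM factors as scaling. Levels are printed as CPM scaled with the same factors. At an adjusted p under 0.05, 3 of the 10 members were higher and 1 was lower, where 28.2% of all genes tested were higher and 30.1% lower. With a log2 fold change beyond 1 as well, 2 members were higher (SLC2A1 and SLC2A3) and 1 was lower (SLC2A6), against 5.12% and 8.86% of all genes tested. With library size alone the balance of all genes tested was different, with 2171 higher (13.4%) and 8449 lower (52.1%) at the adjusted p threshold in place of 4574 and 4875. The median log2 fold change of the 10 members was 0.27, and that of all genes tested was -0.03, whereas with library size alone they were -0.04 and -0.34. In CPM, all r-CRMP2 libraries lay above all untreated ones for 3 members (30.9% of all genes tested) and below them for 1 (33.3%), and the groups of the other 6 overlapped. Errors of log2 fold changes are standard errors from the same edgeR statistic, and intervals are 95% intervals.

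SLC2A3 (GLUT3, chromosome 12, 8071824 to 8088892 in the deposited coordinates) rose the most of the members. It was at 432, 385 and 334 CPM in untreated replicates 1, 2 and 3, and at 2328, 2985 and 2931 CPM in r-CRMP2 replicates 1, 2 and 3. The lowest r-CRMP2 library was well above the highest untreated library. The log2 fold change was 2.84 (standard error 0.10, interval 2.63 to 3.05, edgeR adjusted p = 7.62e-14), or 7.16-fold. SLC2A1 (GLUT1, chromosome 1, 43391046 to 43424847) was at 384, 339 and 299.7 CPM in untreated and 1216, 1451 and 1497 CPM in r-CRMP2 libraries. Its log2 fold change of 2.02 (edgeR adjusted p = 1.36e-12) had an interval of 1.84 to 2.21, which lay below that of SLC2A3. Both genes stayed past both thresholds in every alternative run. SLC2A1 is overlapped over 128 bases by SLC2A1-AS1, a long noncoding RNA on the opposite strand that was at 1.89 ± 0.336 CPM in untreated and 3.23 ± 0.0462 CPM in r-CRMP2 libraries (SD, n = 3 each). Without strand, reads of the shared stretch could belong to either gene. SLC2A1-AS1 had at most 74 counts in a library, and SLC2A1 at least 8198.

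SLC2A6 (GLUT6, chromosome 9, 136336216 to 136344276), found on lysosomal membranes, was the 1 member called lower. It was at 13.7, 16.9 and 16.6 CPM in untreated and 5.52, 3.74 and 4.44 CPM in r-CRMP2 libraries, with no overlap. The log2 fold change was -1.78 (standard error 0.14, interval -2.08 to -1.48, edgeR adjusted p = 3.87e-09). SLC2A8 (GLUT8, chromosome 9, 130159417 to 130170177) was at 27.7, 29.4 and 28.6 CPM in untreated and 36.3, 40.95 and 37.3 CPM in r-CRMP2 libraries. All r-CRMP2 values were higher, and the log2 fold change was 0.42 (standard error 0.08, edgeR adjusted p = 0.000109). That call rested on the scaling, since with library size alone the log2 fold change was 0.11 (edgeR adjusted p = 0.237). In TPM, SLC2A8 was 32.0 ± 1.40 in untreated and 34.1 ± 0.612 in r-CRMP2 cells (SD, n = 3 each). The ratio of SLC2A8 to SLC2A6 TPM, both class III carriers of internal membranes, was 2.02 to 2.37 in untreated and 7.69 to 12.8 in r-CRMP2 libraries.

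**Figure D3:**
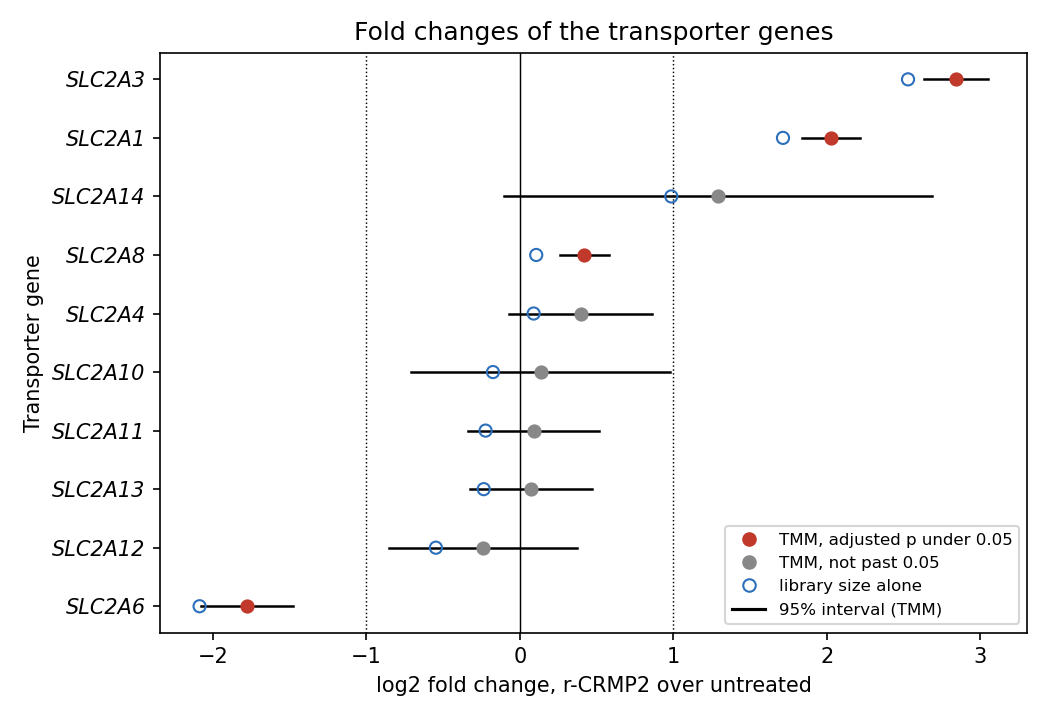
Log2 fold change of each transporter gene (r-CRMP2 over untreated) with TMM scaling (filled, with its 95% interval, red where the adjusted p was under 0.05) and with library size alone (open). SLC2A3, SLC2A1 and SLC2A6 lie beyond the dotted lines at 1 and -1 under both scalings, and SLC2A8 moves from 0.42 to 0.11.

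The other 6 members were low, and none passed the adjusted p threshold. SLC2A4 (chromosome 17, 7185054 to 7191367) had 80, 71 and 52 counts in untreated and 90, 62 and 63 in r-CRMP2 libraries. The groups overlapped, with a log2 fold change of 0.40 and an interval of -0.07 to 0.86. The estimate was 0.09 with library size alone, 0.21 without r-CRMP2 replicate 1 and 0.22 without untreated replicate 3. SLC2A11 (chromosome 22, 24198890 to 24228299) had 91, 139 and 90 counts in untreated and 87, 87 and 102 in r-CRMP2 libraries, untreated replicate 2 standing above the rest. Its interval was -0.34 to 0.51. SLC2A13 (chromosome 12, 40148823 to 40499661) had 130, 76 and 90 counts in untreated and 78, 71 and 101 in r-CRMP2 libraries, with an interval of -0.33 to 0.47. SLC2A12 (chromosome 6, 134308719 to 134373789) had 53, 34 and 32 counts in untreated and 29, 20 and 32 in r-CRMP2 libraries, with an interval of -0.85 to 0.37. In TPM its r-CRMP2 libraries (0.3335 to 0.4909) lay below the untreated ones (0.511 to 0.8157), whereas in CPM the groups overlapped. SLC2A10 (chromosome 20, 45338279 to 45364986), the gene of arterial tortuosity syndrome, had 19, 15 and 16 counts in untreated and 8, 20 and 16 in r-CRMP2 libraries. Its interval was wide, from -0.71 to 0.98. For SLC2A10, SLC2A11 and SLC2A13 the sign of the estimate was positive with TMM and negative with library size alone, so no direction is given for them.

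SLC2A14 (GLUT14, chromosome 12, 7965108 to 8043792), the neighbour and near-copy of SLC2A3, had 1, 1 and 12 counts in untreated and 11, 6 and 11 in r-CRMP2 libraries. Untreated replicate 3 was as high as the r-CRMP2 libraries, so the groups overlapped. The log2 fold change of 1.29 did not pass the threshold (interval -0.11 to 2.69, edgeR adjusted p = 0.106), and it was 0.80 without untreated replicate 1. Its counts are uncertain for a second reason: in the transcripts of GENCODE release 29, 959 of 6288 different windows of 50 bases in SLC2A3 (15.3%) also occurred in SLC2A14. No other pair among the 10 members shared such a window, so 1 of 45 pairs did. At 100 bases, 4.19% of the SLC2A3 windows were shared. The study describes paired-end reads longer than both windows, so these are not shares of ambiguous reads. The counts of SLC2A14 were 0.00832% to 0.131% of those of SLC2A3 in untreated and 0.0102% to 0.0221% in r-CRMP2 libraries. With both genes summed, the log2 fold change was 2.84.

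The likeness of both genes can be seen at the site of the primer that the study used to measure GLUT3 by RT-qPCR. The forward primer is shown 5′ to 3′, with capitals at the bases that differ in SLC2A14.
GLUT3 forward: gctgggcatCgttGttgga
Against the GENCODE transcripts it matched SLC2A3 without a mismatch. In SLC2A14 the best site had the substitutions C10A and G14A, counted from 1 at the 5′ end of the primer, with the base of the primer first. In SLC2A1 its best site had 3 mismatches, and in the pseudogene SLC2A3P2, listed at no more than 1 count in any library, it had 1, C10T. The reverse primer matched SLC2A3 and also 1 of its pseudogenes, which had at most 2 counts in a library, without a mismatch, and its best site in SLC2A14 had T9C and A18T on the strand of the primer.

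A pseudogene named after SLC2A3, SLC2A3P1 (chromosome 5, 167979499 to 167980658), moved the other way. It was at 21.7, 20.3 and 21.4 CPM in untreated and 15.3, 8.44 and 12.1 CPM in r-CRMP2 libraries, with no overlap. The log2 fold change was -0.82 (standard error 0.14, edgeR adjusted p = 4.26e-05). Its transcript shared no window of 50 bases with SLC2A3, and no other listed gene overlapped it in the deposited coordinates. It stood at 5.02 to 6.40 counts per 100 SLC2A3 counts in untreated and at 0.283 to 0.655 in r-CRMP2 libraries. The remaining SLC2A genes had few counts. SLC2A5, the fructose carrier GLUT5, had 33, 41 and 31 counts in untreated and 9, 4 and 6 in r-CRMP2 libraries (log2 fold change -2.14, standard error 0.40, edgeR adjusted p = 0.000144). SLC2A2, SLC2A7 and SLC2A9 had at most 6 counts in any library and did not pass the filter.

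The genes that act around glucose entry were described by lists, beside all genes tested (28.2% higher, 30.1% lower and a median of -0.03 under TMM, and 13.4%, 52.1% and -0.34 under library size alone). Of 11 genes listed for glucose phosphorylation or dephosphorylation, a regulator and a carrier among them, 7 were tested. Of these, 2 were higher and 1 was lower, with a median log2 fold change of 0.02. HK2, the inducible hexokinase, and HK1, the widespread one, were the higher genes, and both are hexokinases that trap glucose in the cell. HK2 was at 241 ± 18.1 CPM in untreated and 877.5 ± 27.9 CPM in r-CRMP2 cells (SD, n = 3 each, log2 fold change 1.86, edgeR adjusted p = 1.09e-13), and HK1 had a log2 fold change of 0.66 (edgeR adjusted p = 2.07e-07). SLC37A4, the glucose 6-phosphate carrier of the endoplasmic reticulum, fell by 0.33 on the log2 scale (edgeR adjusted p = 0.00133). Scaled by library size alone, 2 of the 7 were higher and 3 lower (all genes 13.4% and 52.1%), and HK1 and SLC37A4 were at 0.35 and -0.64.

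Of 25 genes of GLUT traffic and surface stability, all were tested, 10 were higher and 3 were lower, with a median log2 fold change of 0.11. With library size alone, 4 were higher and 14 lower, beside 13.4% and 52.1% of all genes. TXNIP, an arrestin that drives GLUT1 from the cell surface, had the largest rise of this list, with a log2 fold change of 0.99 (standard error 0.07, edgeR adjusted p = 1.41e-09). RALA, a small GTPase of exocytosis, rose by 0.77, RAB14 by 0.54, and SNX27, a sorting nexin that returns GLUT1 to the surface, by 0.50 on the log2 scale. EXOC7, a subunit of the exocyst, fell by 0.87, SNAP23 by 0.48 and RAB8A by 0.38. With library size alone these 7 genes kept their signs. TXNIP, RALA, RAB14 and SNX27 were at 0.68, 0.45, 0.22 and 0.19, and SNAP23 and RAB8A at -0.79 and -0.69. EXOC7 was at -1.18 (edgeR adjusted p = 7.15e-10), then past both thresholds.

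Of 13 other sugar carriers, 8 were tested, 4 were higher and 1 was lower, with a median log2 fold change of 0.45. SLC5A3, a sodium-coupled carrier of myo-inositol, was the 1 carrier here past both thresholds upward, going from 29.2 ± 3.47 to 65.4 ± 7.16 CPM (SD, n = 3 each, log2 fold change 1.16, edgeR adjusted p = 3.08e-09). With library size alone it was 0.86, under the fold threshold. SLC50A1, the human SWEET carrier, had a log2 fold change of 0.65, and SLC45A4 had -1.07. Scaling by library size alone gave 2 of the 8 higher and 2 lower (all genes 13.4% and 52.1%), and SLC50A1 was then at 0.34. The intestinal and renal glucose carrier SLC5A1 did not pass the filter.

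Of 18 transcription factors known to act on GLUT genes, 17 were tested, 10 were higher and 3 were lower, with a median log2 fold change of 0.29. Under library size alone 7 were higher and 7 lower, where all genes stood at 13.4% and 52.1%. EPAS1, which encodes HIF-2α, went from a mean of 156 to 331 CPM (log2 fold change 1.08, standard error 0.07, edgeR adjusted p = 2.68e-10). MEF2D, of the family that binds the SLC2A4 promoter, had a log2 fold change of 1.05, SP3 of 0.94, MYC of 0.69 and HIF1A of 0.49. KLF15, an activator of SLC2A4, was at 0.811 ± 0.266 CPM and 0.236 ± 0.132 CPM (SD, n = 3 each), a log2 fold change of -1.76 (edgeR adjusted p = 0.00483). EPAS1 and MEF2D, scaled by library size alone, were at 0.77 and 0.74, under the fold threshold, while SP3, MYC and HIF1A were at 0.63, 0.38 and 0.18.

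**Figure D4:**
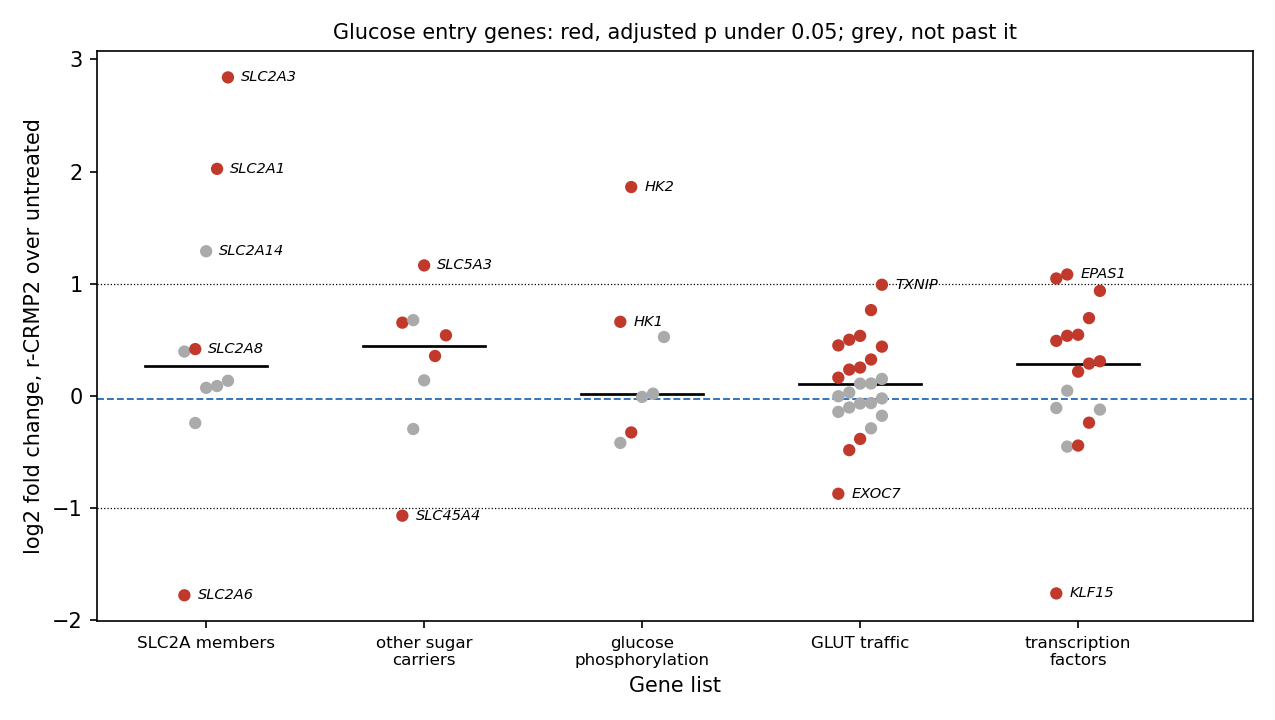
Log2 fold change of the tested genes of each list (red, adjusted p under 0.05, grey, not past it), with a black bar at the median of a list, the median of all genes tested (-0.03) as a dashed line and dotted lines at 1 and -1. SLC2A3 (2.84) and SLC2A1 (2.02) lie above every gene of the other lists, the next being HK2 (1.86).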

How the data were processed

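Polyadenylated RNA of 6 A2780 libraries was sequenced on an Illumina instrument after preparation with a kit that is not described as marking strand. Per the labels, FastQC, HISAT2, DESeq2 and the build hg19 were used. The study's methods give FastQC for read quality and name DESeq2 among several tools for differential expression. The counting tool and the annotation are not given in the sources used here. The authors deposited, for each library, raw counts per gene without normalization. The authors also deposited TPM values, and TPM recomputed here from the counts and gene lengths came within 4.72e-06 of them. Coordinates are printed as deposited, and those of promoters are RefSeq's.

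Counts were tested with edgeR 4.0.16 (R 4.3.3, limma 3.58.1) by the quasi-likelihood test, untreated against r-CRMP2, with TMM factors, filterByExpr and Benjamini-Hochberg adjustment over all genes tested. Thresholds were an adjusted p of 0.05 and, where stated, a log2 fold change of 1. The standard error is the log2 fold change divided by the square root of the F statistic. Shares and sums used TPM and exact permutation tests over libraries. Counting error limits the precision of genes with few counts. Alternatives were DESeq2 1.42.0, RLE factors, library size alone, other low-count filters, a replicate block, SLC2A3 and SLC2A14 summed, and leaving out each library. Named genes were the members, genes of hand-written lists past both thresholds or abundant in their list, and for SLC2A1 and SLC2A3 the 3 genes most like each. Of the genes named, HK1, SLC37A4, RALA, RAB14, SNX27, EXOC7, SNAP23, RAB8A, SP3, HIF1A, SLC2A1-AS1 and SLC2A3P1 were chosen after their values were seen, as were the scaling of the smaller sums by the TMM factor and the marker sums without VIM or COL1A1. The members and lists were chosen with earlier results of these data known. In the GLUT traffic list 1 gene is not reported here and is left out of its counts.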

Additional observations from a re-analysis of the deposited data

How the results depend on the processing

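The counts of members past both thresholds (2 higher, 1 lower) were the same in every alternative run. With library size alone, 2 members in place of 3 were higher at the adjusted p threshold, since SLC2A8 lost it (0.11), and SLC2A10 (-0.18), SLC2A11 (-0.22) and SLC2A13 (-0.24) turned negative. The replicate numbers of the labels gave no evident pairing (correlations of same-numbered deviations of -0.0209, 0.0038 and -0.0252). With the replicate block, the log2 fold changes of SLC2A1, SLC2A3 and SLC2A6 were 2.03, 2.84 and -1.78, and the block changed no call of a member. Over the 6 fits that each left out 1 library, SLC2A1 lay between 1.94 and 2.12, SLC2A3 between 2.75 and 2.96, SLC2A6 between -1.92 and -1.65 and SLC2A8 between 0.38 and 0.46. SLC2A10 (-0.20 to 0.44), SLC2A11 (-0.0481 to 0.39) and SLC2A13 (-0.0352 to 0.28) changed sign there, and none was called. The negative values were those without r-CRMP2 replicate 2 for SLC2A10, without untreated replicate 1 or 3 (-0.0431) for SLC2A11, and without untreated replicate 2 or 3 (-0.0056) or r-CRMP2 replicate 3 (-0.0254) for SLC2A13. SLC2A4 lay between 0.21 and 0.53 and SLC2A14 between 0.80 and 1.49. SLC2A14 was not tested without untreated replicate 3, where it failed the filter.

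Without division by gene length, the differences in share were -10.5 (SLC2A1), 16.4 (SLC2A3), -1.93 (SLC2A6), -2.78 (SLC2A8), -0.0643 (SLC2A10), -0.158 (SLC2A12) and -0.376 (SLC2A13) percentage points. The log2 fold change of the summed TPM, 2.04, was 2.35 when TPM was divided by the TMM factor and 2.26 without SLC2A1, and 1.96 to 2.12 without 1 library. Divided in the same way, the sum of the other 8 members went from -0.30 to 0.0115 and that of class III from -0.32 to -0.0129, while without 1 library they were -0.35 to -0.25 and -0.37 to -0.29. Division by the TMM factor moves the log2 fold change of every sum by the same amount, set by the factors of both groups. Why the other values moved was not tested. Over all genes, both thresholds were passed by 831 higher and 1437 lower, by 489 and 2553 with library size alone, and by 577 and 946 with at least 10 counts in every library. With 3 libraries a group, no exact test of a share can pass 0.05, and at up to 12 counts a library the interval of SLC2A14 runs from -0.11 to 2.69.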

Other observations

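Among 9394 genes tested with a mean of at least 10 CPM, the 3 whose log2 CPM over the 6 libraries, centred on each gene's mean, lay nearest to SLC2A1 were MAFK, IGFBP3 and NDRG1 (Euclidean distances 0.096, 0.103 and 0.16). MAFK is a small Maf transcription factor, IGFBP3 a binding protein of insulin-like growth factors and NDRG1 a stress-response gene. Nearest to SLC2A3 were HILPDA, a lipid droplet protein, ELF3, an epithelial transcription factor, and HIST1H2BJ, a histone gene (distances 0.13, 0.16 and 0.196, log2 fold changes 2.88, 2.85 and 2.81). SLC2A1 and SLC2A3 lay 0.999 apart. With 2 groups of 3 libraries this measure follows mainly the size of the difference between groups, and nothing is drawn from it about shared control.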
